A study of Mus musculus with 5 samples.

Results

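The genes of apical-basal polarity described here are 8 of the 18193 genes that the platform annotation names on the array: Pard3, Pard3b, Pard6b, Prkci, Llgl2, Scrib, Dlg1 and Crb3. All probe sets annotated to these symbols were taken, 19 in all, of which 18 passed a filter on low values. Pard3b was chosen by its measured intensities, which were low on the bone arrays, so its bone values are given as a description without a test. The other 7 genes were taken for their place in the complexes of apical-basal polarity. RNA came from NT2.5 cells, which were derived from a mammary tumour of a neu-transgenic mouse, and was measured on 5 arrays of 1 sample each. The bone sub-line was measured at its early passage 3 and its final passage 6, the liver sub-line at its early passage 1 and its final passage 3, and the parental cells, labelled wild type NT2.5, once. The sub-lines are labelled with bone or with liver as the preferred site of metastasis and the parental cells with bone, liver and lung, and all 3 groups share the NT2.5 background. Each sub-line is 1 lineage, and no passage was measured more than once.

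Epithelial cells have an apical side that faces a lumen and a basal side that rests on matrix, and 3 sets of proteins keep the sides apart. The PAR complex, made of a PAR3 scaffold, a PAR6 adaptor and an atypical protein kinase C, assembles near the tight junction, the Crumbs complex marks the apical membrane, and the Scribble module of Scribble, Discs large and Lethal giant larvae holds the lateral side. Atypical protein kinase C phosphorylates Lethal giant larvae proteins and keeps them off the apical side. Pard3b encodes PAR3-like, a paralogue of PAR3 that has been tied in the mouse mammary gland to the maintenance of stem cells through the kinase LKB1.

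The stretch before the start of transcription is shown for 3 members, from RefSeq on GRCm38.p6: Pard3b, the gene with the low bone values, Pard3, its paralogue whose level varied little, and Crb3, whose human counterpart is repressed by the transition factors SNAIL and ZEB1 through E-boxes. Each window holds the 250 bases before the annotated start on the plus strand, and capitals mark the E-box CAGGTG or its reverse complement CACCTG.
Pard3b, chr1:61638574-61638823: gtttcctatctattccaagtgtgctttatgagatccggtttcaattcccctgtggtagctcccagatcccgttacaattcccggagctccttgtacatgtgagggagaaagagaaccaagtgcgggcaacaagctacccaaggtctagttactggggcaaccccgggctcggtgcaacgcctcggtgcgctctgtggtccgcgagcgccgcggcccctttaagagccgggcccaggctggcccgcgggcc
Pard3, chr8:127063806-127064055: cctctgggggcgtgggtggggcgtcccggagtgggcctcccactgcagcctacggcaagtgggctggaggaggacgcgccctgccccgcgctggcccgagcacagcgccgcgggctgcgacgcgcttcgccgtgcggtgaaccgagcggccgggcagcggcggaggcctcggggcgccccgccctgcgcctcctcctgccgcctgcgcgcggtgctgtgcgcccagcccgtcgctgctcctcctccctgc
Crb3, chr17:57061951-57062200: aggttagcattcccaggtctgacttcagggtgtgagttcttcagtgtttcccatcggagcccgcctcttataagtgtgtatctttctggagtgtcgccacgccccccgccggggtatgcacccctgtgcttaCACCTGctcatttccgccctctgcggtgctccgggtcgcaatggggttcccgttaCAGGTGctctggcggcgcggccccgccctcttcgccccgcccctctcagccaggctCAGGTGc
The Pard3b and Pard3 windows hold 0 E-boxes and the Crb3 window holds 3. Among all 32851 windows of the table, 17.2% hold at least 1 and 2.06% hold 2 or more. The Pard3b window holds 17 CpG dinucleotides, the Crb3 window 17 and the Pard3 window 34, against a median of 6 over all windows. Of the 8 members, 6 were listed, with 11 windows. A second start of Pard3 has 3 E-boxes and the window of Pard6b has 2. A match is a string of letters in this window and does not show binding.

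The identity of the cells was checked against epithelial markers. Of 10 such genes 9 were at or above the median intensity of all probe sets (25.1) on every array, the exception being Krt19, and their summed intensity was 22834 and 26839 at bone passages 3 and 6, 23876 and 21918 at liver passages 1 and 3, and 24553 in parental cells. The adhesion gene Cdh1, which encodes E-cadherin, had intensities of 3511 and 3282 in bone, 3724 and 3637 in liver and 3365 in parental cells. The 6 hepatocyte markers, Alb, Apoa1, Apob, Ttr, Fgb and Ahsg, stayed under 25.1 on all 5 arrays. The summed macrophage and leukocyte markers (9 genes, 1 of them under 25.1 on every array) were 300 and 266 at bone passages 3 and 6, 732 and 508 at liver passages 1 and 3, and 203 in parental cells. Fibroblast markers summed to 165 and 146 in bone, 253 and 236 in liver and 258 in parental cells, with 5 of 8 under 25.1 on every array. Endothelial markers summed to 132.5 and 65.6 in bone, 89.7 and 93.4 in liver and 85.9 in parental cells, with 4 of 5 under 25.1. The 4 of 6 osteoblast markers on the array summed to 524 and 447 in bone, 195 and 180 in liver and 531 in parental cells, with Ibsp and Dmp1 under 25.1 and Alpl the brightest. The part of these cells in the results was not tested. The median intensity of an array lay between 21.9 and 26.4, lowest at bone passage 6. In RNA of whole cultures, fewer cells with a transcript and less transcript per cell cannot be told apart.

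Pard3b was low on both bone arrays by each of its 3 probe sets. Probe set 1441254_at, the brightest, read 5.7 and 2.2 at bone passages 3 and 6, 113 and 78.2 at liver passages 1 and 3, and 107 in parental cells. The bone values stand at the 22.3rd and 14.2nd percentile of all probe sets of their arrays, and the liver and parental values between the 65.9th and 70.5th. Probe set 1453826_at had 1.9 and 3.7 in bone, 23.9 and 16 in liver and 45 in parental cells. Probe set 1427169_at had 8.7 and 4.2 in bone, 21.1 and 12 in liver and 33.7 in parental cells. Every bone value of a probe set was below its liver and parental values, as was so against liver for 26.2% of all probe sets tested and against parental cells for 38.7%. The share against parental cells is no comparison for 1453826_at and 1427169_at. Both passed the filter on low values through the parental array alone, which by itself places their bone values below the parental one.

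On the scale of log2(intensity + 16), which damps differences between dim values, the mean difference of bone minus liver was -2.47 for 1441254_at, -0.93 for 1453826_at and -0.53 for 1427169_at. Between single arrays of the brightest probe set it ran from -2.82 to -2.12. Only that probe set was at least 2-fold lower in every pair of a bone and a liver array, which 0.526% of all 22624 probe sets tested were. Against parental cells the bone differences were -2.63, -1.70 and -1.15 in the same order, and all 3 probe sets were at least 2-fold lower on both bone arrays. This was so for 1.05% of all probe sets, a share to be read against the brightest probe set only. The dimmer probe sets, 1453826_at and 1427169_at, passed the filter on low values through the parental array alone, the group where they are high. The bone values chose the gene and carry no test. With both sub-lines at passage 3, the brightest probe set differed by -2.12. Bone passage 6 minus 3 was -0.25 and liver passage 3 minus 1 was -0.45 on this scale, where the bone intensities are too dim for the size of their change between passages to be read.

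Low bone values were the criterion for Pard3b, read against the liver and parental arrays, and the difference of liver minus parental was not one. In that comparison the brightest probe set differed by -0.16 ± 0.28 on the log2 scale (SE, n = 2 liver passages and 1 parental array; limma adjusted p = 0.956), with a 95% interval from -0.83 to 0.51. It did not pass the threshold of an adjusted p under 0.05, and limma called 0.0309% of all probe sets here. The dimmer probe sets were lower on both liver arrays than in parental cells, as were 32.9% of all probe sets, by -0.77 for 1453826_at and -0.62 for 1427169_at. Both reached 25.1 on the parental array alone and so passed the filter only through the group where they are high, and no test of them is given.

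Pard3, the PAR3 scaffold itself, is measured by 4 probe sets, and none followed its paralogue. The brightest, 1434775_at, had 611 and 576 in bone, 675 and 485 in liver and 598 in parental cells. The bone values lie within the range of the liver values. The 4 probe sets differed by -0.15 to 0.05 between bone and liver and by -0.10 to -0.01 between bone and parental cells, on the log2 scale. For the brightest, the 95% interval of bone minus liver ran from -0.48 to 0.58 (limma adjusted p = 0.940), inside a 2-fold change in either direction. Of the dimmer probe sets, 1436764_at lay between 433 and 562 over the 5 arrays, 1436765_at between 191 and 232, and 1420391_at between 63.6 and 82.5. Intensities of Pard3 and Pard3b on each array are drawn in the plot of the PAR complex genes and their paralogues.

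**Figure D1:**
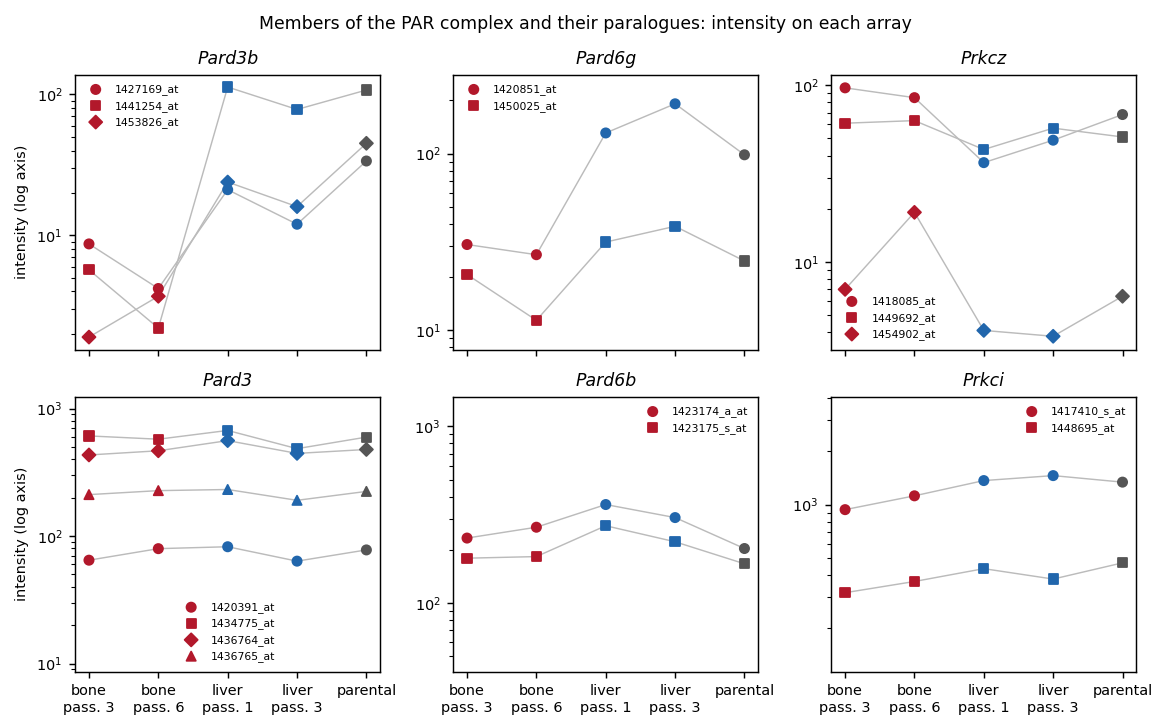
Intensity on a log axis of every probe set of Pard3b, Pard6g and Prkcz (upper panels) and of Pard3, Pard6b and Prkci (lower panels) on the 2 bone arrays (red), the 2 liver arrays (blue) and the parental array (grey). Each symbol is a probe set, grey lines join its values, and the panels have different ranges. The 3 Pard3b probe sets lie between 1.9 and 8.7 on the bone arrays and between 12 and 113 elsewhere.

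Pard6b, an adaptor that links the kinase to Cdc42, had its highest level in the liver sub-line. Probe set 1423174_a_at had 233 and 269 in bone, 361 and 305 in liver and 204 in parental cells, so that the 3 groups did not overlap. Of all probe sets, 46.6% did not overlap in bone against liver. The share was 70.5% in bone against parental and 67.3% in liver against parental. The liver minus parental difference was 0.66 ± 0.24 (limma adjusted p = 0.645; unadjusted p = 0.0308) and that of the second probe set was 0.52 ± 0.24 (adjusted p = 0.736). Bone minus liver was -0.38 ± 0.20 and -0.41 ± 0.20 for the same probe sets (limma adjusted p = 0.446 and 0.410). None of these passed.

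Prkci encodes atypical protein kinase C iota, the catalytic part of the complex. Probe set 1417410_s_at had 936 and 1120 in bone, 1367 and 1458 in liver and 1339 in parental cells. Both bone values were below the other 3, as was so against liver for 26.2% of all probe sets and against parental cells for 38.7%. The difference of bone minus liver was -0.46 ± 0.20 (limma adjusted p = 0.369) and that of bone minus parental -0.38 ± 0.24 (adjusted p = 0.803). In the second probe set, 1448695_at, the values were 317 and 367 in bone, 434 and 379 in liver and 468 in parental cells, again lowest in bone, with differences of -0.24 ± 0.20 from liver and -0.44 ± 0.24 from parental cells. The suffix s_at marks a probe set whose probes can also match other transcripts. The second Pard6b probe set, 1423175_s_at, and the brightest of Crb3, 1434851_s_at, carry it too.

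Of the Scribble module, Llgl2, a Lethal giant larvae homologue of epithelia, had 196 and 192 in bone, 159 and 129 in liver and 159 in parental cells. Its bone values were the highest of the 5, by 0.40 ± 0.20 over liver (limma adjusted p = 0.424) and by 0.26 ± 0.24 over parental cells (adjusted p = 0.892). Bone did not overlap liver, in either direction, for 46.6% of all probe sets, and did not overlap parental cells for 70.5%. Scrib, the scaffold that names the module, had 311 and 365 in bone, 388 and 299 in liver and 424 in parental cells. The bone and liver ranges of Scrib overlap, and their difference was -0.02 ± 0.21 (limma adjusted p = 0.983).

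Dlg1, a PDZ scaffold of the lateral membrane, had 1212 and 903 in bone, 913 and 960 in liver and 842 in parental cells by its brightest probe set, 1415691_at. Bone passage 3 stood above the other 4 arrays, and bone passage 6 was below both liver arrays. The bone minus liver difference was 0.16 ± 0.22 (limma adjusted p = 0.777), and a second probe set gave 0.15 ± 0.19. The third Dlg1 probe set stayed between 1.5 and 9.1 on all 5 arrays and was the 1 member probe set that did not pass the filter.

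Crb3, the Crumbs protein of most epithelia, was lowest in parental cells for 2 of its 3 probe sets. Probe set 1455115_a_at had 267 and 214 in bone, 198 and 187 in liver and 151 in parental cells. Its bone minus parental difference of 0.62 ± 0.25 was the largest of the 15 probe sets of members other than Pard3b in that comparison, and it did not pass (limma adjusted p = 0.597; unadjusted p = 0.0411). The brightest, 1434851_s_at, had 359 and 310 in bone, 364 and 254 in liver and 259 in parental cells, with overlap between bone and liver. For bone minus liver the 3 probe sets ran from -0.20 to 0.29 and differ in sign.

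Over the 7 members other than Pard3b, limma called 0 of 15 probe sets in bone against liver, where it called 0.159% of all probe sets (36 of 22624), and 0 of them had an unadjusted p under 0.05. In bone against parental it called 0 of 15 (0.124% of all probe sets, 28 in number), 1 having an unadjusted p below 0.05, and in liver against parental 0 of 15 (0.0309%, 7 in number) with 1. An unadjusted p below 0.05 was found for 13.9% of all probe sets in bone against liver, 8.0% in bone against parental and 7.09% in liver against parental. The bone minus liver differences of the 15 ran from -0.46 to 0.40 with a median of -0.01, against a median of -0.03 over all probe sets. All 15 of the 95% intervals for bone minus liver lay inside a 2-fold change, the outermost bounds being -0.92 and 0.87. For bone minus parental 12 of 15 did and for liver minus parental 13 of 15. The share of all probe sets with such an interval is not given. Of all probe sets, 77.5%, 84.1% and 79.0% had a difference within the range of the 15, in the order of these comparisons. The counts are thus no trait of the members. Groups of intensities that did not overlap between bone and liver were found for 8 of the 15, and for 46.6% of all probe sets. Between bone and parental cells this was so for 12 of the 15, and for 70.5% of all probe sets. Between liver and parental cells it was so for 9 of the 15, and for 67.3%. Bone and liver are each set against the same parental array, so those comparisons share it.

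**Figure D2:**
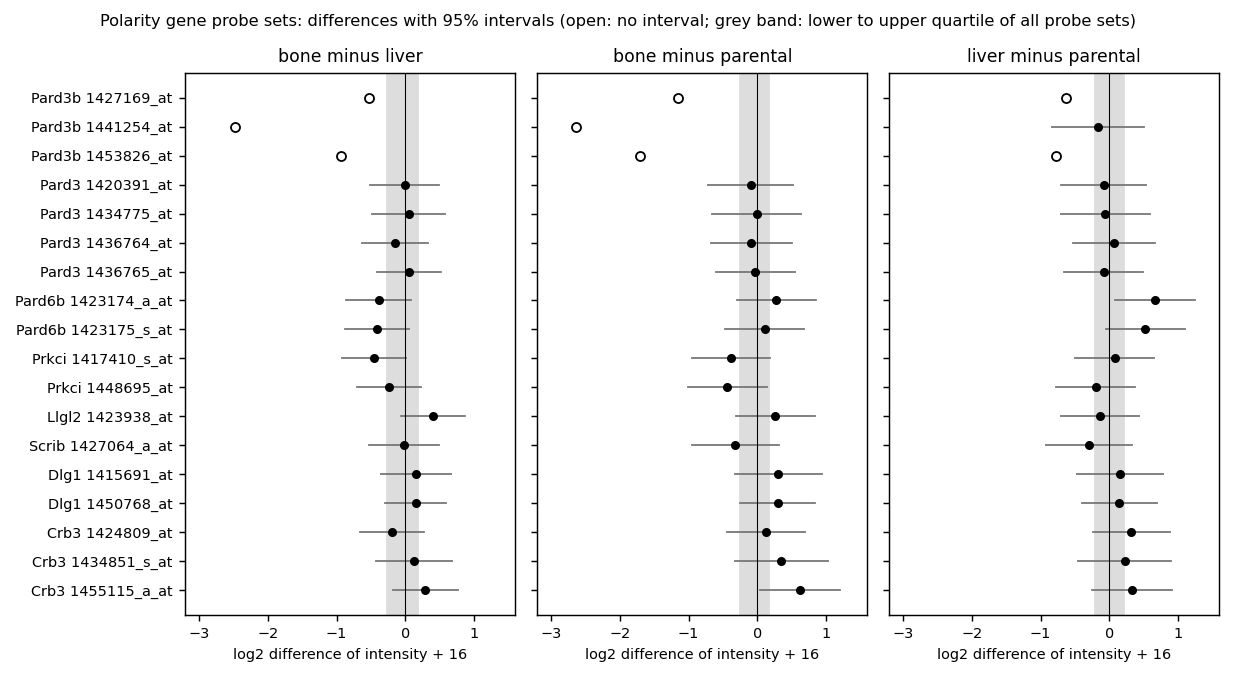
Log2 difference of intensity + 16 for the 18 member probe sets that passed the filter, as bone minus liver, bone minus parental and liver minus parental. Filled points carry a 95% interval from the limma fit, open points (Pard3b in the bone comparisons, and its 2 dimmer probe sets throughout) are descriptions without one, and the grey band spans the lower to the upper quartile of all 22624 probe sets. Filled points of bone minus liver lie between -0.46 and 0.40, and the open points between -2.47 and -0.53.

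Between passages the members other than Pard3b moved by less than 2-fold. Their 15 probe sets differed by -0.42 to 0.26 between bone passages 6 and 3, and by -0.49 to 0.09 between liver passages 3 and 1. At least 2-fold apart were 0 of them in either pair, and 2.33% and 2.63% of all probe sets. At the shared passage 3, bone minus liver ran from -0.63 (Prkci, 1417410_s_at) to 0.55 (Llgl2), with 0 of 15 at least 2-fold apart, against 4.13% of all probe sets. Single arrays have no replicate check.

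Around the members stand 35 further genes of polarity and junctions in 4 lists, of which 30 had a probe set that passed the filter. For each gene the brightest probe set was read. In bone against liver 1 of the 30 was called, Pard6g, where 0.23% of the brightest probe sets of all genes were, and 3 had an unadjusted p under 0.05. In bone against parental limma called 0 of 30, and 0.167% of all genes, with 3 of the 30 at an unadjusted p under 0.05. In liver against parental it called 0 of 30, and 0.0317% of all genes, with 2 of the 30 under that value. These counts of 3, 3 and 2 stand against the shares of 13.9%, 8.0% and 7.09% of all probe sets. In each comparison 29 of the 30 were less than 2-fold apart, as were most probe sets. The lower and upper quartiles of all probe sets were -0.26 and 0.19 in bone minus liver. They were -0.25 and 0.17 in bone minus parental and -0.20 and 0.21 in liver minus parental.

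Pard6g, a paralogue of Pard6b that also joins the kinase to Cdc42, was lower in the bone sub-line. Probe set 1420851_at had 30.6 and 26.8 at bone passages 3 and 6, 131 and 191 at liver passages 1 and 3, and 98.5 in parental cells. Both bone values were below the other 3 arrays, by at least 2-fold in every pair. Of all probe sets, 0.526% were so against liver and 1.05% against parental cells. Bone minus liver was -1.97 on the log2 scale (SE 0.23, n = 2 passages each, limma adjusted p = 0.0463). This is 3.91-fold on that scale, which damps differences between dim values such as those in bone. With a pseudocount of 1 added to the intensities the difference was -2.43, and with 64 it was -1.27. Bone minus parental was -1.36 ± 0.28 and did not pass (limma adjusted p = 0.226), and liver minus parental was 0.61 ± 0.28 (adjusted p = 0.735). The second probe set, 1450025_at, was dimmer, with 20.7 and 11.4 in bone, 31.6 and 38.8 in liver and 24.7 in parental cells. It reached 25.1 on the liver arrays alone and so passed the filter only through the group where it is high, and its bone minus liver difference of -0.69 is given without a test. The call rests on the choice of settings. The limma adjusted p was 0.260 with no filter, 0.132 with a pseudocount of 1 and 0.0522 with 64. It was 0.0546 with quantile normalization and 0.0509 with 1 probe set per gene. It passed with the filter on the mean, median centring, the mean-variance trend, a robust prior and the stage as a block, lowest at 0.0166. The fit of only the 2 groups compared repeats the main one, since the single parental array adds nothing to the estimated spread. Left out in turn, bone passages 3 and 6 gave -2.03 and -1.91, and liver passages 1 and 3 gave -2.22 and -1.72. In all 15 alternatives the difference was negative, between -2.43 and -1.27.

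Prkcz, the second atypical protein kinase C, had 96.7 and 85.1 in bone, 36.5 and 48.9 in liver and 68.3 in parental cells by its brightest probe set. The bone values were the highest and the liver values the lowest. Bone and liver did not overlap for 46.6% of all probe sets. Bone minus liver was 0.87 ± 0.20 and did not pass (limma adjusted p = 0.170), and a second probe set gave 0.24 ± 0.20. Pard6a, the third PAR6 gene, differed by 0.11 ± 0.19 and the small GTPase gene Cdc42, which activates the complex, by 0.17 ± 0.19.

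The other 3 lists are read against lower and upper quartiles of -0.26 and 0.19 over all probe sets in bone minus liver. Genes of the Scribble module (Llgl1, Dlg3, Dlg4 and Dlg5 tested) ran from -0.42 to 0.21 with a median of -0.20. Genes of the Crumbs complex (Crb1, the PALS1 gene Mpp5, Patj, Lin7b and Lin7c) ran from -0.39 to 0.24 with a median of 0.01. Limma called 0 genes of bone against liver in each of the 3 lists, junction genes included, and 0.23% of the brightest probe sets of all genes. In the order of Scribble, Crumbs and junction genes, 0, 0 and 1 had an unadjusted p below 0.05, as did 13.9% of all probe sets. Outside these lists, Stk11, which encodes LKB1, had 384 and 401 in bone, 332 and 371 in liver and 343 in parental cells by its brightest probe set, a bone minus liver difference of 0.15 ± 0.19 (limma adjusted p = 0.752). A second probe set, with 5.5 and 10.4 in bone, 3.1 and 7.0 in liver and 32.4 in parental cells, passed the filter through the parental array alone and is given without a test.

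The 17 junction genes tested ran from -0.50 (Cgnl1, which encodes paracingulin) to 0.57 (Ocln, which encodes occludin) in bone minus liver, with a median of -0.03. Cdh1 differed by -0.12 ± 0.18 (95% interval -0.55 to 0.32) and the tight junction scaffold gene Tjp1 by -0.03 ± 0.20. Against parental cells, Tjp3, a scaffold of the same family, had the lowest difference of the junction genes in both sub-lines, with 91.1 and 87.8 in bone, 86.2 and 49.3 in liver and 181 in parental cells. Its differences of -0.90 ± 0.31 for bone and -1.27 ± 0.31 for liver did not pass (limma adjusted p = 0.497 and 0.407). Marveld2, which encodes tricellulin, had 267 and 215 in bone, 205 and 142 in liver and 119 in parental cells, and its bone minus parental difference of 0.92 ± 0.29 did not pass (limma adjusted p = 0.444).

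**Figure D3:**
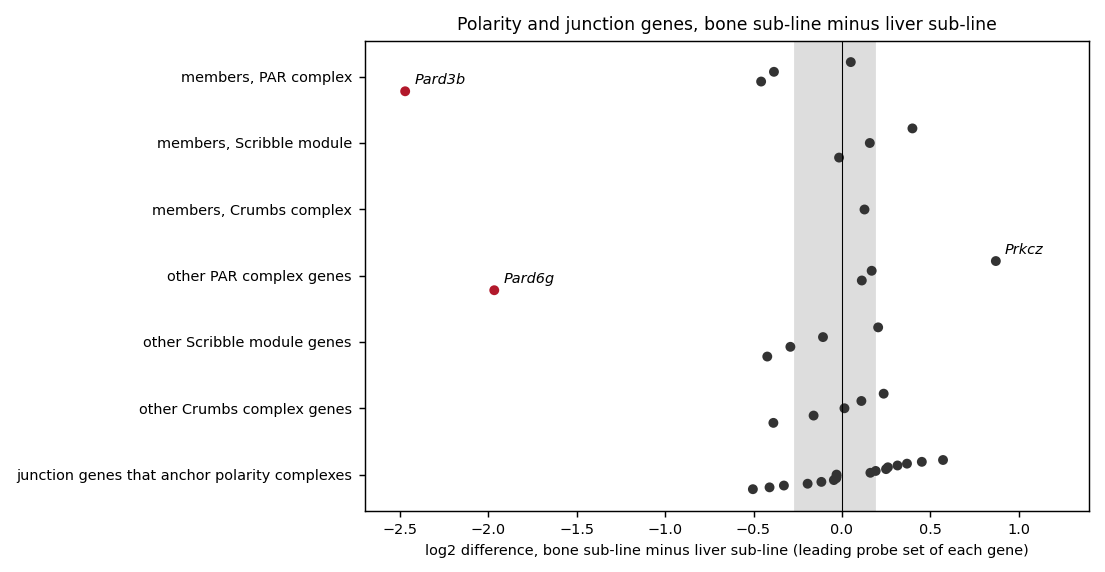
Log2 difference of bone minus liver for the brightest probe set of each gene, by list, with Pard3b and Pard6g in red and the lower to upper quartile of all probe sets as a grey band. Pard3b lies at -2.47 and Pard6g at -1.97, Prkcz at 0.87, and the other genes between -0.50 and 0.57.

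The genes most like Pard3b were found among 11972 named genes by the root mean square difference, over the 5 arrays, between log2 values centred on their own mean. Closest was Sel1l3, at 0.23, followed by Csgalnact1, a transferase that starts chondroitin sulfate chains, at 0.30, the secretory kinase gene Fam20c at 0.31, the zinc transporter gene Slc39a8 at 0.39, and Jcad, whose protein sits at endothelial junctions, at 0.40. Pard3b itself varied by 1.25 around its mean on the same measure. Sel1l3 had 33 and 13.9 in bone, 239 and 225 in liver and 200 in parental cells. Jcad had 37.7 and 15.8 in bone, 143 and 92.1 in liver and 202 in parental cells. All 5 were lower on both bone arrays than on the liver and parental arrays, as the measure selects for. They need not be dim there: Slc39a8 had 151.5 and 196.6 in bone, 791.9 and 933.1 in liver and 703.7 in parental cells. Of the other members, Prkci was nearest with 1.06 (rank 1279) and Llgl2 farthest with 1.41 (rank 10293).

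**Figure D4:**
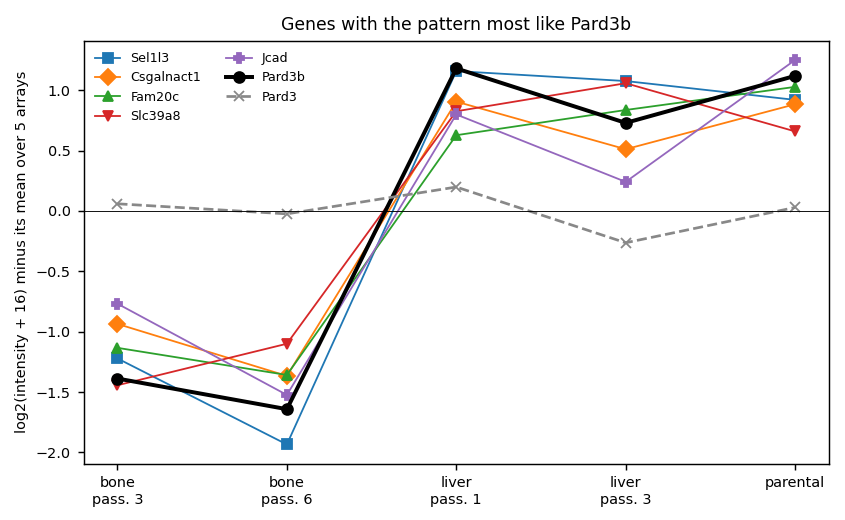
Log2(intensity + 16) on each array minus the gene's own mean over the 5 arrays, for Pard3b (black), the 5 genes most like it (colours) and Pard3 (dashed grey). Pard3b and the 5 genes lie below their mean on both bone arrays and above it on the liver and parental arrays, and Pard3 stays near its mean on all 5.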

How the data were processed

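RNA was measured on 5 Affymetrix arrays, 1 per sample, labelled from 5 ug of total RNA per the labels' protocols. The values the authors deposited are intensities of probe sets on a linear scale. The submitters' processing notes name RMA, with no version given in the sources used here, but RMA yields log2 values and these are linear. With 2% trimmed from each end, every array averaged 150, so the arrays share a scale.

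Intensities were converted to log2(intensity + 16). Of 45101 probe sets, 34958 had 1 gene symbol in the platform annotation, 932 had several and 9211 were not listed. Non-control probe sets with 1 symbol were kept where the brightest of the 5 arrays reached 25.1, the median of all values, which left 22624. Gene identifiers of 34754 matched a RefSeq table, and 0 symbols changed. Limma 3.58.1 in R 4.3.3 was fitted over all 5 arrays with 3 groups, with Benjamini-Hochberg adjustment over all probe sets tested and a call at an adjusted p under 0.05. Residual and prior degrees of freedom were 2 and 4.77. Passages of 1 lineage served as replicates, and the single parental array was taken to vary like them. The p-values cover only the spread between the 2 passages of each sub-line, in which passage and technical differences cannot be told apart. They do not cover variation between independently derived sub-lines, and the passages measured differ between bone and liver. The number of arrays limits the precision. The fit was also run on simulated arrays drawn independently of each other. That run cannot show how well passages of 1 lineage serve as replicates.

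The members and lists were chosen with earlier results of these data known. One further list of polarity genes is not reported here. The naming rule took every member probe set, list genes that were called or 2-fold apart in every pair of arrays, and the 5 genes most like Pard3b. Other list genes given by name were chosen after their values were seen. Alternatives covered the pseudocount, filter, scaling, probe sets per gene, eBayes prior, stage as a block, the samples in the fit and each sub-line array left out.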

Additional observations from a re-analysis of the deposited data

How the results depend on the processing

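For the brightest probe set of each of the 8 members, 22 tested differences were recomputed under up to 15 alternatives. The dimmer member probe sets are not covered here. Some of the 315 values that resulted repeat others. Bone minus liver from only the 2 groups compared equals the main fit. Leaving out an array of the sub-line not compared equals the fit of only the 2 groups compared. With every array kept, limma called none, the lowest adjusted p being 0.236. The sign turned in 12 of the 315 values, each no larger than 0.18 in size. Median centring gave 0.037 for Pard3 in bone minus parental and 0.047 for Scrib in bone minus liver, and quantile normalization gave 0.017 for Scrib. With 1 sub-line array left out in turn, bone minus liver ran from -0.18 to 0.28 for Pard3, from -0.20 to 0.16 for Scrib, from -0.051 to 0.37 for Dlg1 and from -0.12 to 0.37 for Crb3. In the same fits bone minus parental ran from -0.053 to 0.030 for Pard3, and liver minus parental from -0.29 to 0.17 for Pard3, from -0.39 to 0.062 for Pard3b and from -0.025 to 0.47 for Crb3. Pard3b stayed negative in both bone comparisons. Its bone minus liver value was -4.36 with a pseudocount of 1 and -1.22 with 64, and its bone minus parental value was -4.55 and -1.34, since the pseudocount sets how far dim bone values count.

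Counts of all probe sets called moved more. In bone against liver, 36 became 0 with no filter or a pseudocount of 1 (4012 and 2762 at an unadjusted p under 0.05), 55 with a filter on the mean, 85 with median centring, 96 with a mean-variance trend and 215 with the stage as a replicate block. The replicate block left Pard6g called. The count ran from 0 to 102 with an array left out, 0 without liver passage 1 or 3 (2317 and 3528 at an unadjusted p under 0.05). In bone against parental, 28 (16 higher, 12 lower) became 2 with no filter, 10 with a pseudocount of 1, 51 with median centring, 17 with 1 probe set per gene, 45 with the trend, 12 with only the groups compared (11 higher, 1 lower), and 12 to 68 with an array left out. In liver against parental, 7 (6 higher, 1 lower) became 2 with no filter, a pseudocount of 1 or 1 probe set per gene, 17 with the filter on the mean, 12 with a pseudocount of 64, 21 with median centring (15 higher, 6 lower), 14 with the trend, 50 with only the groups compared (26 higher, 24 lower), and 2 to 50 with an array left out. The cause of these shifts was not tested. A 3-fold limit in place of 2-fold left 98 of 528 probe sets for bone passage 6 against 3, 88 of 595 for liver passage 3 against 1, and 209 of 934 for bone against liver at passage 3. Bone values of Pard3b lie near the dim end of the arrays, so the size of its difference is uncertain.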
